A study of Mus musculus with 4 samples.

Results

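The transfer RNA (tRNA) genes of the mouse were examined for binding of phosphorylated ATF2 in blood stem cells. The members were every gene of biotype tRNA on chromosomes 1 to 19, X and Y in the RefSeq gene table of the mm10 genome. This gave 408 tRNA genes of 49943 genes of any biotype. Coordinates could be compared with the peaks for 403 of them, and the other 5 (Trnat-ugu, Trnap-ugg, Trnav-aac, Trnal-aag and Trnav-cac) are listed with scaffold coordinates and were left out. A tRNA gene was called marked in a library when the summit of a deposited peak, the position of its highest signal, lay within 1 kb of either end of the gene. The 403 genes carry 48 anticodons for 20 amino acids, and their symbols give the amino acid letter and the anticodon, so that n-TRacg2 is an arginine gene with anticodon ACG.

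tRNA genes are transcribed by RNA polymerase III, not by the polymerase that makes messenger RNA. Their promoter lies inside the gene: TFIIIC binds the A and B boxes and places TFIIIB, with its subunits Brf1, Bdp1 and the TATA-binding protein, upstream of the start, where TFIIIB recruits the polymerase. ATF2 is a bZIP transcription factor that binds cAMP-response-type elements, pairs with Jun-family proteins and is phosphorylated by stress-activated kinases on its N-terminal threonines.

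The cells were hematopoietic stem cells of C57BL/6J mice, all wild-type, sorted by the surface phenotype CD48-CD150+LSK, with no treatment named and no age given in the labels. CUT&Tag, in which an antibody directs a transposase to cut and tag the chromatin beside its target, was run on 2000 to 5000 cells with 17 to 20 PCR cycles. An antibody to ATF2 phosphorylated at T69/71 was used for 2 libraries and one to ATF2 phosphorylated at S490/498 for the other 2. The titles name T69/71 where the antibody field has T67/71, and the titles were followed. Whether 2 libraries of an antibody stem from different mice is not stated, so the spread between them may be technical, and no IgG or input library was analysed here.

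On the named chromosomes the deposited lists held 12464 peaks in T69/71 replicate 1, 14716 in replicate 2, 7132 in S490/498 replicate 1 and 435 in S490/498 replicate 2. The read total behind each list is not known from the files. The last library stood apart: 8.61% of the 476 peaks in its whole list lay outside these chromosomes, against 0.19% to 0.224% in the other 3. Of 10 genes fixed as stem cell markers, Hlf, a leucine-zipper factor of these cells, was marked in all 3 larger libraries, whereas 0 of 5 erythroid and 1 of 6 T-cell genes were. Binding near a marker does not measure its expression.

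The gene table gives positions without letters, and the sequence of a tRNA gene could be read only where it lies within a RefSeq window around the start of another gene (GRCm38.p6). All 4 tRNA genes found whole are shown, as examples of the promoter inside the gene. Each is printed 5′ to 3′ on the strand that carries its B box, which is in capitals.
n-TRtcg5: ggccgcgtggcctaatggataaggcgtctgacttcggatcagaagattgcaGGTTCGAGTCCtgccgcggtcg
n-TTagt9: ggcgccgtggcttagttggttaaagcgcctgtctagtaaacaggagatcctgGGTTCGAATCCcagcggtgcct
n-TVcac9: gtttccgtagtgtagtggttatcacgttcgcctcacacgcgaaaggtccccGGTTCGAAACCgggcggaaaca
n-TAagc16: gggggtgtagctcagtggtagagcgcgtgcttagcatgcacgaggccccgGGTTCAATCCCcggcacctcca
n-TRtcg5, an arginine gene at chr7:79466419-79466491, had a summit 178 bp away in T69/71 replicate 1 and 196 bp away in replicate 2. n-TTagt9 (threonine, chr7:35234770-35234843) and n-TVcac9 (valine, chr13:23446142-23446214) had one in T69/71 replicate 1 only, 69 bp and 160 bp away. n-TAagc16 (alanine, chr13:21222586-21222657) was unmarked in every library, its nearest summit being 11486 bp away. All 4 held a B box, the unmarked gene included, though its box GGTTCAATCCC has an A where those of the marked genes have GGTTCG.

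Promoters with a tRNA gene beside or inside them are shown for 2 protein-coding genes, each as the 250 bases before the start of transcription. Polr3e encodes a subunit of RNA polymerase III itself, and 71 bases of the leucine gene n-TLaag4 lie inside its window at chr7:120917528-120917777, plus strand, with the B box in capitals.
Polr3e: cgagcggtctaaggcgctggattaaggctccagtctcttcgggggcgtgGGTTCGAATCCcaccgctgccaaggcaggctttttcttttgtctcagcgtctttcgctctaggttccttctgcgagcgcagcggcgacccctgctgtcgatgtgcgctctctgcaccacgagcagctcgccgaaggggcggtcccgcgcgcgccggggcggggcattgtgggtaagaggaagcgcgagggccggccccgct
The histone gene H4c8 (chr13:23530794-23531043, plus strand) lies within 1 kb of the methionine gene n-TMcat9, and the capitals mark the cAMP-response element TGACGTCA.
H4c8: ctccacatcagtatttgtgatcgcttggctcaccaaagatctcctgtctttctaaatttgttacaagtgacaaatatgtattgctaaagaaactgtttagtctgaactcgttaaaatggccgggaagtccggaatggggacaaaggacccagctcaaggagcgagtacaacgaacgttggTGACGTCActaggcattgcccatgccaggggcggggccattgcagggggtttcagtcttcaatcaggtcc
Polr3e was marked in both T69/71 libraries at folds of 4.48 and 6.58 and in neither S490/498 library. The same peaks marked n-TLaag4, with summits 30 bp and 23 bp from that tRNA gene. The element TGACGTCA was found, on either strand, in the 300-base start windows of 2.54% of 17492 protein-coding genes and of 5.93% of the 3876 marked in both T69/71 libraries. Among the 38 coding genes with a tRNA gene within 1 kb and a window, H4c8 was the 1 that held it. The pattern TGANTCA, where N is any base, is wider than the AP-1 element, which has C or G there. This pattern was in 8.12% of all windows and in 4.7% of those of genes marked in both T69/71 libraries. Elf1 was the 1 of these 38 that held it. The B box consensus was in 0.166% of all windows and in 2 of these 38, those of Ndufs7 and Polr3e.

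tRNA genes carried peaks in 3 of the 4 libraries. In T69/71 replicate 1, 104 of the 403 were marked, or 25.8% (exact binomial 95% interval 21.6% to 30.4%), against 15.2% of all genes. In T69/71 replicate 2, 82 were marked, or 20.3% (16.5% to 24.6%), against 15.5% of all genes. In S490/498 replicate 1, 46 were marked, or 11.4% (8.48% to 14.9%), against 9.71% of all genes. In S490/498 replicate 2, 0 of 403 were marked (exact binomial upper end 0.911%), against 0.171% of all genes. The floor of 3 counts would be 0.744%, and the nearest summit was 12.0 kb from a tRNA gene. These intervals cover counting error only, and neighbouring genes that share a peak are not independent. The shares in the 3 larger libraries were above those of all genes and below those of protein-coding genes, which were 27.6%, 28.0% and 18.0% (0.225% in S490/498 replicate 2). For S490/498 replicate 1 the share of all genes was inside the interval.

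Calls were shared between the larger libraries for part of the genes. Both T69/71 libraries marked 55 tRNA genes, 13.6% of the 403, against 11.4% of all genes and 21.2% of protein-coding genes. These 55 were 52.9% of the genes marked in replicate 1 and 67.1% of those in replicate 2, whereas for protein-coding genes the shares were 76.7% and 75.7%. S490/498 replicate 1 shared 41 of its 46 genes with T69/71 replicate 1 and 40 with replicate 2, or 89.1% and 87.0%. For protein-coding genes these shares were much the same, at 88.6% and 85.0%. All 3 larger libraries marked 37 genes, or 9.18%, against 7.6% of all genes, and 270 tRNA genes had no mark in any library. Both S490/498 libraries together marked 0, against 0.123% of all genes.

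The antibodies were compared over libraries. The mean share of marked tRNA genes was 23.1% for T69/71 and 5.71% for S490/498 (n = 2 libraries each), a difference of 17.4 percentage points. An exact two-sided permutation test over the libraries gave p = 0.333 (0.333 after adjustment over 2 comparisons), the smallest value that 2 libraries against 2 allow. The S490/498 libraries differed from each other by 11.4 points. With the T69/71 lists cut to the length of that of S490/498 replicate 1, by −log10 q, and the shorter list of S490/498 replicate 2 kept whole, the counts were 54, 48, 46 and 0 marked genes, against 10.8%, 9.66%, 9.71% and 0.171% of all genes. As shares of the 403 these were 13.4%, 11.9%, 11.4% and 0%, and 35 genes were marked in both T69/71 libraries, against 7.32% of all genes. The mean difference was then 6.95 points with S490/498 replicate 2 and 1.24 points without it, the latter a comparison added after the data were seen and with no test. Whether list length accounts for the difference between antibodies was not tested.

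Most tRNA genes lie away from coding genes, and marking there was above that of other small-RNA genes. Of the 403, 354 were over 1 kb from both ends of every protein-coding gene. Marks were found at 73 (20.6%), 52 (14.7%), 23 (6.5%) and 0 of these in T69/71 replicates 1 and 2 and S490/498 replicates 1 and 2. For small nuclear RNA genes at the same distance, 3.21%, 3.52% and 1.55% of 965 were marked in the 3 larger libraries. Small nucleolar RNA genes gave 1.04%, 1.2% and 0.881% of 1249, and microRNA genes 2.32%, 2.88% and 1.86% of 1078. In each of the 3 larger libraries the lower end of the interval for tRNA genes (16.5%, 11.2% and 4.16%) was above the share in each of these other classes. These intervals take genes as independent, which neighbours sharing a peak are not, so they are too narrow for a test between classes. Over 5 kb from coding ends the tRNA shares were 16.8%, 13.8% and 6.06% of 297. The difference between antibodies away from coding genes was 14.4 points (17.7% against 3.25%; n = 2 libraries each; exact two-sided permutation p = 0.333). With the T69/71 lists cut as above it was 4.8 points, and 1.55 points without S490/498 replicate 2.

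**Figure D1:**
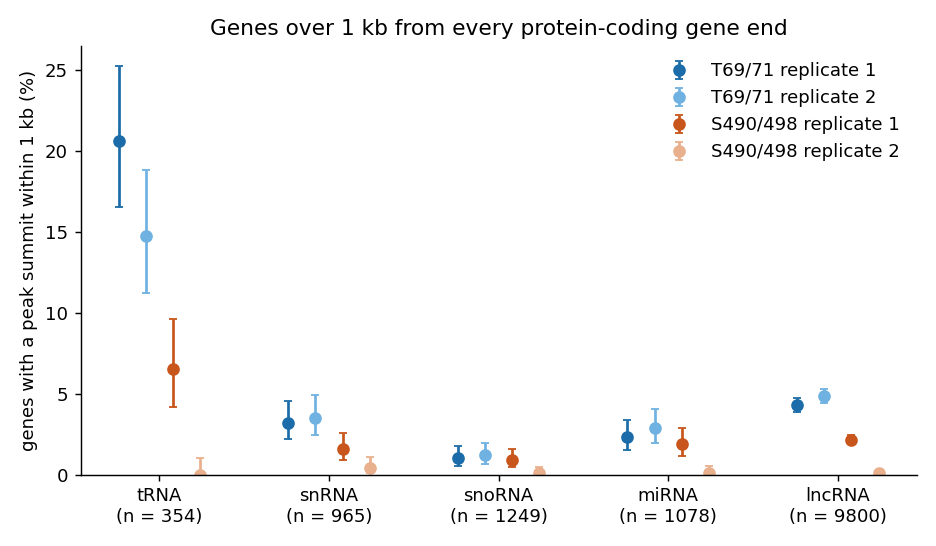
Percent of genes over 1 kb from every protein-coding gene end that had a peak summit within 1 kb, by biotype and library. Points are libraries and bars are exact binomial 95% intervals. The tRNA points of the 3 larger libraries lie at 20.6%, 14.7% and 6.5%, above those of the other biotypes, and the point of S490/498 replicate 2 is at 0.

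Summits lay close to the tRNA genes. Around tRNA genes over 5 kb from coding ends, T69/71 replicate 1 had 111 summits per Mb within 100 bp of the gene and 156 per Mb from 100 to 250 bp, against 2.75 per Mb from 1 to 2 kb. T69/71 replicate 2 had 148, 72.1 and 2.75 per Mb in the same bands, and S490/498 replicate 1 had 24.6, 48.0 and 0. These densities rest on few summits: 9, 13 and 1, then 12, 6 and 1, then 2, 4 and 0. Small nuclear RNA genes also had more summits close by, at lower densities. Theirs were 7.54, 39.5 and 2.98 per Mb, then 11.3, 23.7 and 4.17, then 3.77, 11.8 and 1.79. Over all marked tRNA genes the median distance from gene to summit was 194 bp, 262 bp and 279 bp in these libraries. The marking rule itself bounds these medians at 1 kb. The summit was inside the tRNA gene in 3 cases per library, so that nearly all summits flanked the gene. The peak itself overlapped the gene at 49, 32 and 18 genes.

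**Figure D2:**
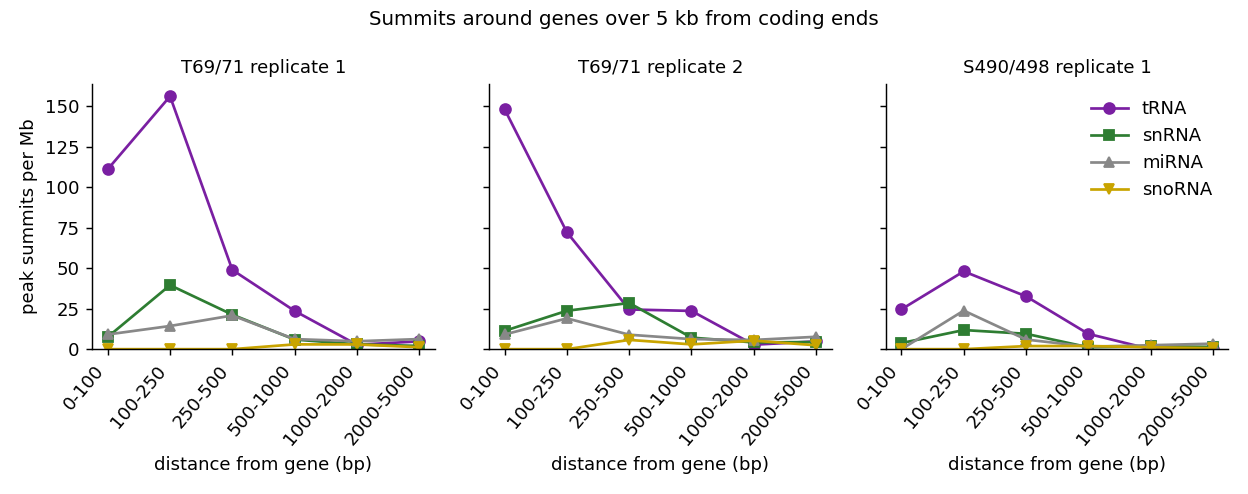
Peak summits per Mb by distance from the gene (bp), around tRNA, snRNA, miRNA and snoRNA genes over 5 kb from every protein-coding gene end, in the 3 larger libraries. In T69/71 replicate 1 the tRNA line reaches 156 per Mb between 100 and 250 bp and falls to 2.75 per Mb between 1 and 2 kb.

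The marked genes rested on fewer peaks, since neighbours share them. The 104, 82 and 46 genes were served by 75, 58 and 34 peaks. Of these peaks, 26, 23 and 19 had a protein-coding gene end within 1 kb of the summit. A further 15, 10 and 9 had only a long non-coding RNA end that near, and 34, 25 and 6 had neither. The fold enrichment of a peak, comparable within a list only, is the authors' own value for its summit over the local background. Its median at tRNA genes was 5.56, 6.62 and 6.12, against 6.02, 6.52 and 6.05 over the other peaks, so the tRNA peaks were of ordinary height. Peaks by a coding end had medians of 7.64, 6.67 and 6.49 and those away 5.31, 6.4 and 5.46. The estimated median number of fragments at the summit was 11, 10 and 9 at tRNA genes, against 8, 9 and 8 over all peaks.

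The marked share fell with distance from coding genes. Of the 49 within 1 kb of a coding gene end, 63.3%, 61.2% and 46.9% were marked in T69/71 replicates 1 and 2 and S490/498 replicate 1. From 1 to 5 kb the shares of 57 genes were 40.4%, 19.3% and 8.77%, and from 5 to 20 kb those of 159 genes were 26.4%, 21.4% and 11.3%. From 20 to 100 kb they were 7.48%, 5.61% and 0% of 107 genes, and beyond 100 kb 1 of 31 genes was marked, in T69/71 replicate 2. T69/71 replicate 1 fell at each step, whereas T69/71 replicate 2 and S490/498 replicate 1 differed little between the 1 to 5 kb and 5 to 20 kb bands.

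**Figure D3:**
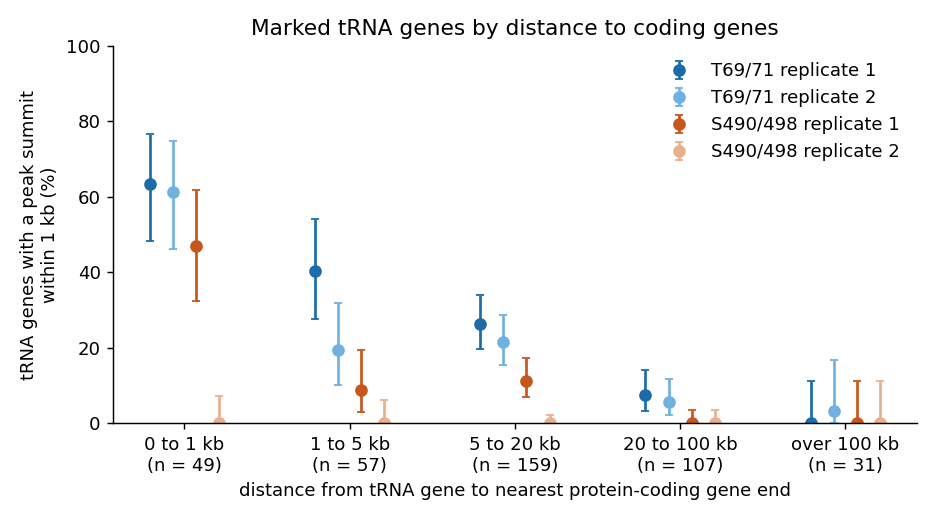
Percent of tRNA genes with a peak summit within 1 kb, by distance to the nearest protein-coding gene end. Points are libraries and bars are exact binomial 95% intervals. The shares in the nearest band are 63.3%, 61.2% and 46.9% in the larger libraries.

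The coding genes beside tRNA genes were themselves often marked. Of 42 coding genes with a tRNA gene within 1 kb, 29, 30 and 25 were marked in the larger libraries, against 27.6%, 27.9% and 17.9% of the other coding genes. Of the 49 tRNA genes near a coding end, the 5′ end was the nearer for 36, of which 26, 23 and 20 were marked, and the 3′ end for 9, of which 3, 5 and 2 were. The summit was nearer to the tRNA gene in 16 and nearer to the coding end in 15 of the marked cases in T69/71 replicate 1, in 15 and 15 in replicate 2, and in 13 and 10 in S490/498 replicate 1. Within 1 kb, a mark on the tRNA gene and one on the coding promoter cannot be told apart.

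The 10 leading tRNA genes, those marked in most libraries with the best mean peak rank, were mostly of this kind. n-TRacg2 (arginine, chr9:123529425-123529497) lies 256 bp from the 5′ end of Sacm1l, which encodes a phosphoinositide phosphatase, and had folds of 14.9, 15.7 and 15.7 in T69/71 replicates 1 and 2 and S490/498 replicate 1. n-TAagc9 (alanine, chr19:3576263-3576335), 230 bp from Ppp6r3, a regulatory subunit of protein phosphatase 6, had 14.5, 14.1 and 8.94. n-TRcct1 (arginine, chr6:38533931-38534003), 858 bp from the mitochondrial assembly factor gene Fmc1, had 13.3, 11.9 and 10.3. The 3 genes differed most in S490/498 replicate 1, where n-TRacg2 was the highest.
n-TRacg6 (arginine, chr14:54517696-54517768), 226 bp from the arginine methyltransferase gene Prmt5, had 12.6, 11.5 and 10.1. n-TMcat17 (methionine, chr8:121579229-121579301), 365 bp from the ubiquitin ligase gene Fbxo31, had 11, 12.9 and 9.85. n-TRcct5 (arginine, chr11:115412981-115413053) lies 307 bp from the 3′ end of Mrpl58, which encodes a peptidyl-tRNA hydrolase of the mitochondrial ribosome, and had 12.0, 9.91 and 9.87. Its peaks also serve the arginine genes n-TRcct3 and n-TRtcg4, and 1 gene was named per peak. n-TRcct3, chosen after its values were seen, lies closest to these summits, at 29, 29 and 59 bp. The others near a coding end were n-TWcca2 (tryptophan, by Tmpo, sharing its peaks with n-TDgtc16) at 10.3, 11.2 and 8.22 and n-TIaat16 (isoleucine, by Plekhg2) at 7.2, 7.27 and 8.12.

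Other leading genes stood away from coding genes. n-TYgta7 (tyrosine, chr13:23432990-23433077), 9.12 kb from Abt1, had folds of 11.3, 11.3 and 11.4, the most even of the 10. Its summits lay 182 bp, 244 bp and 184 bp away. n-TQttg6 (glutamine, chr11:95859172-95859243), 4.32 kb from B4galnt2, had 8.22, 13.7 and 5.76. As folds are comparable within a list only, differences in level between libraries cannot be read from these values. Over 5 kb from coding genes, n-TPagg7 (proline, 19.3 kb from Wnt11) had 7.69, 9.66 and 5.14 and n-TRacg3 (arginine, 16.3 kb from Trim55) had 7.66, 9.72 and 6.85. The summits of these peaks lay 588 to 814 bp from the named gene. Those at n-TRacg3 also serve n-TYgta1, n-TYgta2 and n-TAagc14, and lie 43, 30 and 0 bp from n-TYgta2, a tyrosine gene chosen after its values were seen. n-TTcgt3 (threonine) had 7.67, 7.31 and 6.32, n-TCgca52 (cysteine) 7.94, 7.24 and 3.74, and n-TDgtc5 (aspartate, sharing its peaks with n-TGtcc3 and n-TEctc6) 5.31, 7.56 and 5.16. None of these had a peak in S490/498 replicate 2.

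**Figure D4:**
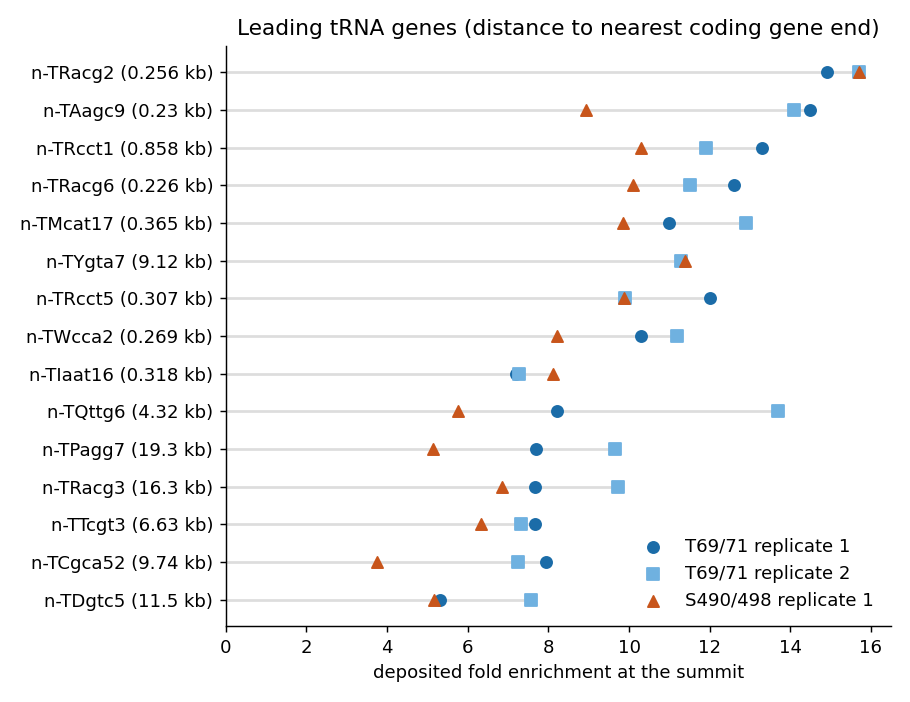
Fold enrichment at the summit, as deposited, for the leading tRNA genes in the 3 larger libraries, with the distance to the nearest protein-coding gene end in brackets. n-TRacg2 has 14.9, 15.7 and 15.7 and n-TYgta7 has 11.3, 11.3 and 11.4.

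By amino acid, the marked share ran from 5.26% to 56.2% in T69/71 replicate 1. Arginine genes were marked at 11, 11 and 8 of 24 in T69/71 replicates 1 and 2 and S490/498 replicate 1, and 9 were marked in both T69/71 libraries. Over 1 kb from coding ends they were marked at 6, 5 and 3 of 18. Tyrosine genes, whose transcripts carry an intron in the anticodon loop, were marked at 5, 5 and 3 of 10, and the same 5 were marked in both T69/71 libraries. At that distance they were marked at 4, 4 and 3 of 9. The arginine genes n-TRcct5, n-TRcct3 and n-TRtcg4 share their peaks, as do the tyrosine genes n-TYgta1 and n-TYgta2. Proline genes reached 9 of 16 in T69/71 replicate 1 and 4 and 3 in the other libraries, with 2 in both T69/71 libraries. Proline thus led in T69/71 replicate 1, ahead of tyrosine and arginine, which led in replicate 2. Tyrosine and arginine also had the highest shares marked in both T69/71 libraries, at 50.0% and 37.5%.
Other amino acids also differed between the T69/71 libraries. Glycine genes were marked at 10 of 28 in replicate 1 and 2 in replicate 2, and leucine genes at 5 of 25 and 9. Lysine genes (26) were marked at 3 and 2 and valine genes (22) at 3 and 2, with 0 in both T69/71 libraries (11.4% of all genes and 13.6% of tRNA genes) and 0 in S490/498 replicate 1. Within arginine, anticodon ACG was marked at 4, 3 and 3 of 6 genes and CCT at 3 of 5 in each larger library, against 1, 2 and 0 of 5 for TCT. All marked CCT genes lay within 1 kb of a coding gene end. Over 1 kb from coding ends, ACG was marked at 2, 1 and 1 of 4, CCT at 0 of 2 in each larger library and TCT at 1, 1 and 0 of 4.

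**Figure D5:**
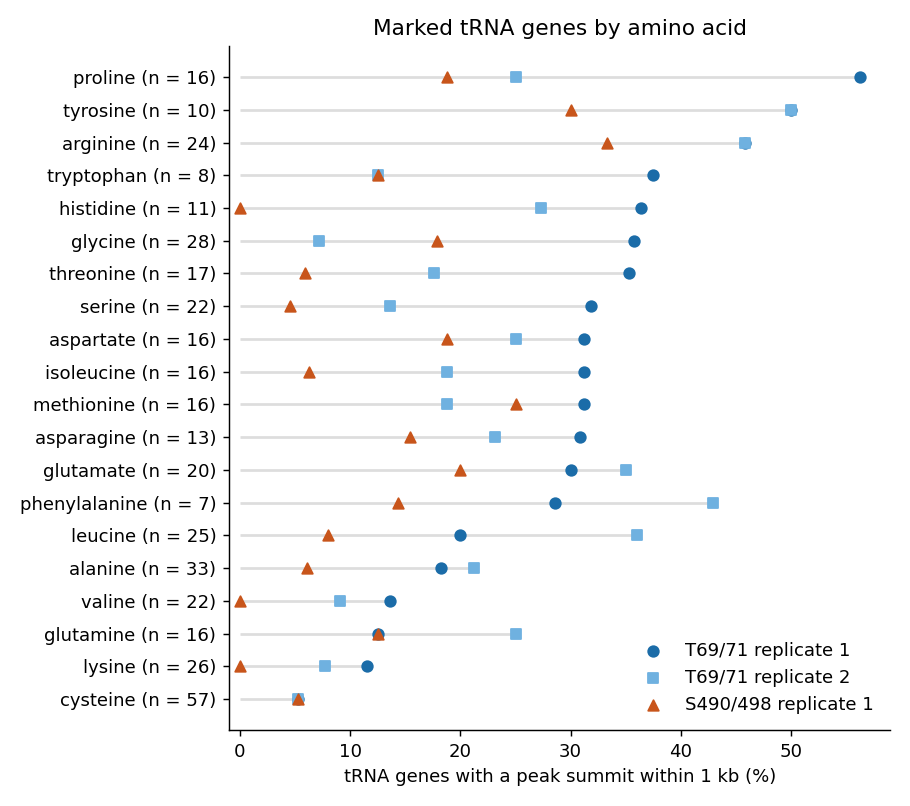
Percent of tRNA genes with a peak summit within 1 kb for each amino acid, in the 3 larger libraries, ordered by T69/71 replicate 1. Tyrosine and arginine are at 50.0% and 45.8% in both T69/71 libraries, and cysteine is at 5.26% in all 3.

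Cysteine was the largest family, and its marked share was the lowest of the 20 amino acids in both T69/71 libraries. Of 57 cysteine genes, 3 were marked, the same 3 in each larger library: n-TCgca52 on chromosome 17, and n-TCgca54 and n-TCgca55 on chromosome 11. The other 54 included 49 on chromosome 6 (chr6:47978997-48363603), none of which was marked in any library. Summits within that whole span numbered 0, 3, 1 and 0 in the 4 libraries. The nearest coding gene end was 13.7 kb to 150 kb from these genes (median 84.9 kb). How reads matching several copies were assigned is not given in the sources used here. Without these 49 genes the share from 20 to 100 kb was 10.5%, 7.89% and 0% of 76, still below the nearer bands.

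Genes in large clusters had lower marked shares than lone genes or those in small clusters. With genes within 10 kb of each other joined, 110 stood alone, 104 lay in 42 clusters of 2 to 4, and 189 lay in 22 clusters of 5 or more. Lone genes were marked at 30.9%, 27.3% and 17.3% in the larger libraries, small clusters at 43.3%, 28.8% and 15.4%, and large clusters at 13.2%, 11.6% and 5.82%. Over 1 kb from coding ends the shares were 18.6%, 15.1% and 6.98% for lone genes, 37.4%, 24.2% and 9.89% for small clusters and 13.0%, 9.6% and 4.52% for large ones, so lone and large-cluster genes lay closer together there. The large clusters hold 41 of the unmarked cysteine genes of chromosome 6, and without these their shares over 1 kb from coding ends were 16.9%, 12.5% and 5.88%. In large clusters 8 genes were marked in both T69/71 libraries, against 25 lone genes and 22 in small clusters. Of the 22 large clusters, 10 with 84 genes had no marked gene in any library.
The largest, 22 cysteine genes at chr6:48244316-48317586, had none. The 15 genes of chr1:171064164-171081946, which serve glycine, glutamate, aspartate and leucine, were marked at 4, 3 and 3, from 2, 1 and 1 peaks. The 15 genes of chr13:21907111-21940995 were marked at 0, 1 and 0, and the 14 of chr13:23425646-23453514, which hold n-TYgta7, at 6, 1 and 1. Among the 2 clusters of 10 genes that come next, chr13:21234045-21279768 was marked at 0, 3 and 0, and chr6:48332840-48363603 (cysteine) at none. Of the 22 large clusters, 4 had a marked gene in both T69/71 libraries, 3 in replicate 1 and not 2, and 5 in replicate 2 and not 1.

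Chromosomes followed these differences. Chromosome 13, with 105 tRNA genes, was marked at 15, 8 and 2 in T69/71 replicates 1 and 2 and S490/498 replicate 1, with 2 genes in both T69/71 libraries. Chromosome 11 was marked at 22, 16 and 10 of 47, and chromosome 10 at 7, 7 and 5 of 11. None of the 17 genes on the X chromosome was marked in any library.

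A limit of 500 bp in place of 1 kb lost 21, 19 and 13 of the marked genes in the 3 larger libraries, and one of 2 kb added 14, 13 and 6. In T69/71 replicate 1 the farthest marked genes were n-TIaat10 at 995 bp and n-TPtgg5 at 987 bp, and the nearest unmarked ones were n-TEctc13 at 1030 bp and n-TVaac8 at 1045 bp. In replicate 2 these were n-TPtgg7 at 906 bp and n-TLtaa4 at 880 bp, against n-TAagc15 at 1002 bp and n-TCgca51 at 1130 bp.

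The machinery that transcribes and matures tRNAs is encoded by protein-coding genes, for which the background is the 27.6%, 28.0% and 18.0% above. Of 13 genes for subunits of RNA polymerase III, 9, 9 and 8 were marked in T69/71 replicates 1 and 2 and S490/498 replicate 1, and 7 in both T69/71 libraries. Polr3e is among these 7, through the peaks it shares with n-TLaag4. The subunit gene Polr3gl had folds of 7.89, 7.34 and 8.33. Polr3a, the largest subunit, was unmarked. Of 10 TFIIIB and TFIIIC genes, 7, 6 and 2 were marked. Brf1, the TFIIIB subunit specific to genes of this kind, had 10.5, 15.5 and 7.16, the TATA-binding protein gene Tbp had 6.64, 7.06 and 5.31, and Gtf3c3 and Gtf3c5 were unmarked.
Of 8 genes for regulators and related factors, 5, 4 and 3 were marked. Maf1, the repressor of the polymerase, had 7.12, 9.04 and 5.63, from peaks that also lie by another coding gene end. Of 20 genes for tRNA end processing, splicing and export, 8, 8 and 7 were marked. Clp1, an RNA kinase, had 13.4, 9.81 and 10.6, Pop7, a subunit of RNase P, had 10.4, 11.8 and 11, and Xpot, the tRNA exporter, had 8.45, 11.7 and 6.73.

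Other transcripts of RNA polymerase III were marked too. Of 10 such genes, 8, 5 and 7 were marked in the 3 larger libraries, against 15.2%, 15.5% and 9.71% of all genes, and 5 in all of them, against 7.6%. The signal recognition particle RNA genes Rn7s2 and Rn7s1 had folds of 22.6, 17.0 and 14.5 and of 14.9, 13.4 and 14. Rpph1, the RNA of RNase P, which trims the 5′ end of tRNA precursors, had 13.2, 12.2 and 9.57. Rmrp had 11.7, 13.2 and 8.46. The peaks at Rpph1, Rmrp and Rn7s1 also lie within 1 kb of a coding gene end, and that at Rn7s2 does not. The Y RNA gene Rny3 and the U6 gene Rnu6 were unmarked.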

How the data were processed

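CUT&Tag libraries were aligned and peaks called by the authors; Bowtie2 2.2.9, FastQC 0.11.5, MACS2 and ChIPseeker are named in the submitters' processing notes. Each deposited peak has a score, a fold (ratio) over background, −log10 p-value and −log10 q-value, and a summit offset. Lists are per library, per the labels. Only summits, folds and −log10 values were used. Fragments at a summit were estimated from the deposited fold and −log10 p-value. Genes came from a RefSeq table of mm10 (GRCm38.p6), and rows with scaffold coordinates were left out.

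Python 3.11.15, pandas 2.3.3 and scipy 1.17.1 were used. Intervals are exact binomial (Clopper-Pearson), 95%, for counting error. The floor is 3 counts. Antibodies were compared by an exact permutation test over libraries. Code was tested on simulated data. The leading genes were the 10 marked in most libraries, ordered by mean peak rank over the T69/71 libraries with 1 gene named per peak, and 6 over 5 kb from coding ends by the same order. The members and lists were chosen with earlier results of these data known. The deviations of same-numbered libraries over the 403 tRNA genes had a correlation of -0.03. With 0 of these genes marked in S490/498 replicate 2, this value cannot show whether the numbers pair the libraries. They were not taken as pairs. Alternatives were other windows (500 bp, 2 kb), peak overlap of at least 1 bp, a −log10 q of at least 5, equal list lengths, merged loci, other cluster gaps and leaving out each library. A peak without an IgG control may hold untargeted transposition, which was not tested.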

Additional observations from a re-analysis of the deposited data

How the results depend on the processing

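The antibody differences kept their sign under every alternative run. That over all tRNA genes ran from 1.24 points at equal list length without S490/498 replicate 2 (added after the data were seen; 6.95 with it) to 20.0 points with a 2 kb window, and that away from coding genes from 1.55 (4.8 with that library) to 16.2 points. Leaving out 1 library with full lists gave 11.7 to 23.1 points and 11.2 to 17.7 points, with no test. With the replicate block, which was run although the numbers were not taken as pairs, the differences were 17.4 and 14.4 points (exact permutation p = 0.5 for both, the smallest possible). The count marked in both T69/71 libraries, 55, was 17 when the peak had to overlap the gene and 35 at equal list length (7.32% of all genes), and 1 library alone marked 82 to 104. No tRNA gene was marked in both S490/498 libraries under any of these, and 1 library alone marked 0 to 46. Joining genes within 5 kb left 5 genes of large clusters marked in both T69/71 libraries, against 8, and 50 kb gave 10; leaving out the chromosome 6 cysteine genes, added after the data were seen, left 8. No tRNA gene models overlapped, so leaving them out changed nothing. The read totals are unknown, so an unmarked gene was not detectable at this depth rather than shown unbound.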
